A study of Mus musculus with 6 samples.

Results

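The genes described here are Gata2, Gata4 and Gata6, GATA family transcription factors whose best known roles lie outside T cells. They were taken as 3 fixed windows of the mouse genome build mm9: a 25 kb window for Gata2 on chromosome 6 that starts at 88140001, an 85 kb window for Gata4 on chromosome 14 that starts at 63815001 and a 45 kb window for Gata6 on chromosome 18 that starts at 11045001. Together they held 155 bins of 1 kb, of 2638957 such bins on chromosomes 1 to 19 and X. No mm9 gene annotation was used, so exons, introns and start sites were not placed inside the windows. RNA was not measured in these files, so whether the genes were silent in the cells was not examined.

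GATA factors are zinc finger proteins that bind DNA at short sites with the core letters GATA. Gata2 is needed in blood stem and progenitor cells and in mast cells, Gata4 in heart and gonad, and Gata6 in gut endoderm, heart and peritoneal macrophages. In CD4 T cells the family member in use is Gata3, which directs the Th2 programme. Ezh2 is the enzyme of Polycomb repressive complex 2 that methylates histone H3 at lysine 27, a mark of silenced developmental genes, and in mammals the complex is found mainly at CpG-rich DNA.

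The study asked where Ezh2 lies in Th1 and Th2 cells by chromatin immunoprecipitation and sequencing. Naive (CD44lowCD62Lhigh) CD4+ T cells from spleens of C57BL/6 mice were cultured for 5 days. All cultures received antibodies to TCRβ and CD28 for the first 2 days, and IL-2. Th1 cultures also had IL-12 and an antibody to IL-4, and Th2 cultures had IL-4 and an antibody to IFN-γ. Each cell type gave a polyclonal anti-Ezh2 library, a rabbit IgG control antibody library and an input library. With 1 library in every group, there was no replicate spread to measure. The cell types are those of the labels, since DNA libraries hold no marker expression. The labels state neither the age and sex of the mice nor how many were pooled.

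A position is a distinct genomic interval in a library, counted once however many reads shared it and placed at its midpoint. The Ezh2 libraries held 10809666 positions in Th1 and 14963599 in Th2 on chromosomes 1 to 19 and X, and the inputs held 15578675 and 12862628. The Th1 control antibody library held 9326717. The Th2 control antibody file ended inside chromosome 17, and of the windows it covered only Gata2. Fold over input is the share of a library's positions in a window divided by the same share of the input, and its 95% exact (Clopper-Pearson) interval covers counting error only. Intervals and tests therefore compare libraries, not cell types.

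For Gata2, the RefSeq promoter table of build GRCm38.p6 gives the starts of an upstream and a downstream transcript, 4773 bases apart. The 250 bases before each start are shown because CpG-rich DNA is what Polycomb repressive complex 2 occupies in mammals. Each CpG is in capitals, and both sequences read 5′ to 3′ on the plus strand of chromosome 6. The upstream one is chr6:88193641-88193890 and the downstream one chr6:88198414-88198663 in GRCm38.p6. These coordinates belong to another build than the windows and cannot be compared with them.
Gata2 upstream promoter: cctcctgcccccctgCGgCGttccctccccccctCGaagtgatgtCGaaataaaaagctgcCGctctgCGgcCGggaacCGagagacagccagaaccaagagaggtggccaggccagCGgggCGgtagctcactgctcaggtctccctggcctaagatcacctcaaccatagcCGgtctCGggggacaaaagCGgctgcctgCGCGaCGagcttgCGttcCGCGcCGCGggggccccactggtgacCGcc
Gata2 downstream promoter: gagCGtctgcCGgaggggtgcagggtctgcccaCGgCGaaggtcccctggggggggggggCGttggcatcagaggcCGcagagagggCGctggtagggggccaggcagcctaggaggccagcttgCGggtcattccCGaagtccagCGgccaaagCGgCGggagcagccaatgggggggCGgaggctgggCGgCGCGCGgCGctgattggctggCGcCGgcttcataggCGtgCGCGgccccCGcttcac

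The upstream promoter held 22 CpG dinucleotides and the downstream one 24, where the median over the 32851 promoters of the table was 6. At least 22 were present in 14.8% of all promoters and at least 24 in 12.0%. G and C made up 67.2% of the upstream and 74.0% of the downstream promoter, against a median of 52.4%. The letters GATAA were searched on both strands and were found in neither sequence, while 22.6% of all promoters held them. The absence of GATAA says only that these letters are not in these windows. Of the 3 genes, only Gata2 was matched to the promoter table. Entries on chromosome 18, which holds Gata6, were left out of this match, so it cannot show whether Gata6 has one. In the gene order of GRCm38.p6, Gata2 lies between the protein-coding genes Rpn1 and Dnajb8 and overlaps the long noncoding RNA Gm38708. Gata4 lies between Neil2 and Blk, and Gata6 between Mib1 and Rbbp8, overlapping the long noncoding RNA Gata6os. The files carry no strand, so Ezh2 at a gene and at an overlapping noncoding RNA cannot be told apart.

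Ezh2 was enriched over input in all 3 windows, in both cell types. The Gata2 window held 814 Ezh2 and 190 input positions in Th1, which was 6.17-fold over input (95% interval 5.27 to 7.27). In Th2 it held 1195 Ezh2 and 160 input positions, or 6.42-fold (5.44 to 7.62). The Gata2 folds of both cell types lay inside each other's intervals. The Gata4 window held 2361 Ezh2 and 656 input positions in Th1, or 5.19-fold (4.76 to 5.66). In Th2 the same window held 3781 and 562, or 5.78-fold (5.29 to 6.33), so the Gata4 intervals overlapped as well. The Gata6 window, where a long stretch was at input level, held 563 and 272 in Th1, or 2.98-fold (2.58 to 3.46). For Th2 the counts were 1049 and 234, or 3.85-fold (3.34 to 4.46), and the intervals of both cell types overlapped only at their ends.

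These window folds were compared with every tile of the same length on chromosomes 1 to 19 and X that had at least 0.5 times the median input. The median tile stood between 0.881-fold and 0.889-fold in both cell types. For Gata2, 0.0946% of 94049 tiles in Th1 and 0.157% of 94153 in Th2 were at or above its fold. For Gata4, 14 of 27975 tiles in Th1 and 20 of 27958 in Th2 were. For Gata6 the shares were 0.467% of 52685 tiles and 0.387% of 52695.

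The control antibody did not show this enrichment. In Th1 it was 1.04-fold over input at Gata2 (95% interval 0.817 to 1.31), 0.850-fold at Gata4 (0.743 to 0.972) and 1.22-fold at Gata6 (1.01 to 1.47). In Th2 it was 0.828-fold at Gata2 (0.650 to 1.05). The flanks, stretches of equal length on either side of each window, also lay far below the windows. At Gata6 they stood between 0.774-fold and 1.19-fold, and at Gata4 between 1.07-fold and 1.44-fold. The Gata2 flanks were higher, with a Th1 fold of 1.84 (1.505 to 2.25) and a Th2 fold of 2.09 (1.72 to 2.54) on the left, and with 1.47 (1.22 to 1.76) and 1.504 (1.25 to 1.81) on the right. Of the left Gata2 flank, 2 bins were called in Th2 by the rule given next, so this flank held part of the Gata2 domain. Reads per position in the windows were between 2.06 and 2.22 for Th1 Ezh2 and between 1.84 and 2.02 for Th2 Ezh2, against 2.24 and 2.04 over the whole libraries.

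**Figure D1:**
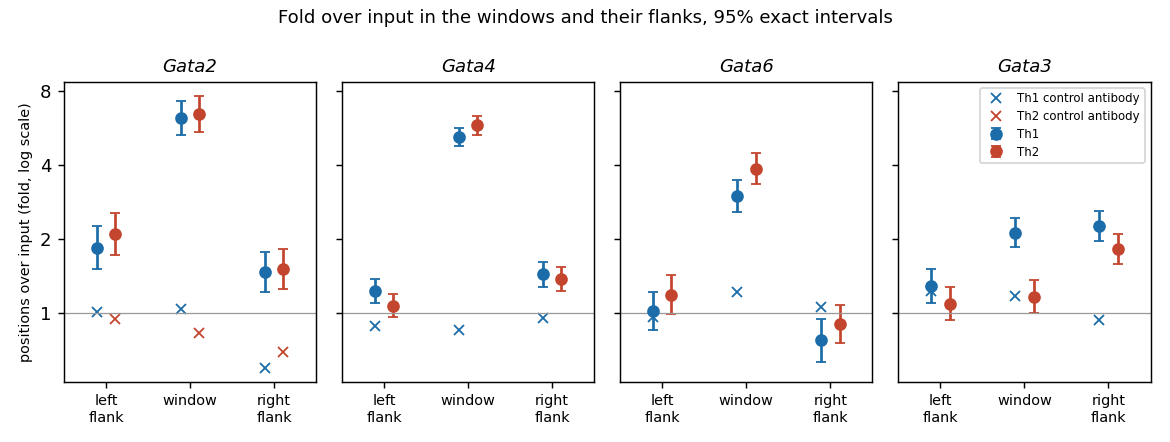
Fold over input (log scale) in each window and in its left and right flank of equal length, for Ezh2 (circles, bars are 95% exact intervals of counting error) and the control antibody (crosses), 1 library per point. The Ezh2 folds of Gata2, Gata4 and Gata6 lay above both flanks in both cell types; the Gata3 comparison window was at 2.12-fold in Th1 and 1.17-fold in Th2.

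Enriched bins were called along the whole genome. The call asked of a 1 kb bin that Ezh2 exceed input by at least 2-fold and that a one-sided exact binomial test reach an adjusted p under 0.05. Called bins next to each other, or separated by 1 bin, formed a region. Of the tested bins of the genome, 0.992% were called in Th1 and 1.21% in Th2. At Gata2, 15 of 24 tested bins were called in Th1 and 13 of 25 in Th2. The numbers for Gata4 were 39 of 80 and 40 of 84, and for Gata6 they were 8 of 29 and 12 of 40. By the same rule the control antibody had 0 called bins in each window it covered, where it gave 0.00151% of all tested bins in Th1 and 0% on the 8 chromosomes that the Th2 file held whole.

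The called bins of the 3 windows were largely shared. Of 62 bins called in Th1, 55 were also called in Th2, a share of 88.7%, and they made up 84.6% of the 65 bins called in Th2. Over all called bins of the genome the shares were 64.3% and 49.8%. At Gata2, 13 bins were called in both, at Gata4 34 and at Gata6 8. All 8 Gata6 bins of Th1 were called in Th2, and the other 4 Gata6 bins of Th2 lay at the borders of the domain or to its right.

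The bins called in one cell type were then measured in the other, whose libraries had no part in choosing them. In the Th1-called bins, Th2 Ezh2 was 8.56-fold over input at Gata2 (95% interval 7.001 to 10.6), 10.0-fold at Gata4 (8.84 to 11.4) and 16.5-fold at Gata6 (11.7 to 24.2). In the Th2-called bins, Th1 Ezh2 was 11.7-fold at Gata2 (9.26 to 14.9), 8.12-fold at Gata4 (7.22 to 9.15) and 8.08-fold at Gata6 (6.26 to 10.6). Gata6, with the lowest fold over its whole window in both cell types, thus had the highest Th2 fold of the 3 in Th1-called bins. There its interval lay above those of Gata2 and Gata4, while in the Th2-called bins its Th1 interval overlapped both. The Th1-called bins held 635 Ezh2 and 33 input positions of Th2 over 8 kb at Gata6. They held 3002 and 257 over 39 kb at Gata4, and 1046 and 105 over 15 kb at Gata2. Input per kb was thus lowest at Gata6, and its part in the higher fold was not tested. The separation in Th2 depended on the bins chosen. In the main regions called in Th2 itself, the Th2 fold was 12.7 for Gata6 (9.53 to 17.3) and 10.3 for Gata4 (9.06 to 11.7). For Gata2 it was 9.23 (7.48 to 11.5), and the Gata6 interval overlapped both others.

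**Figure D2:**
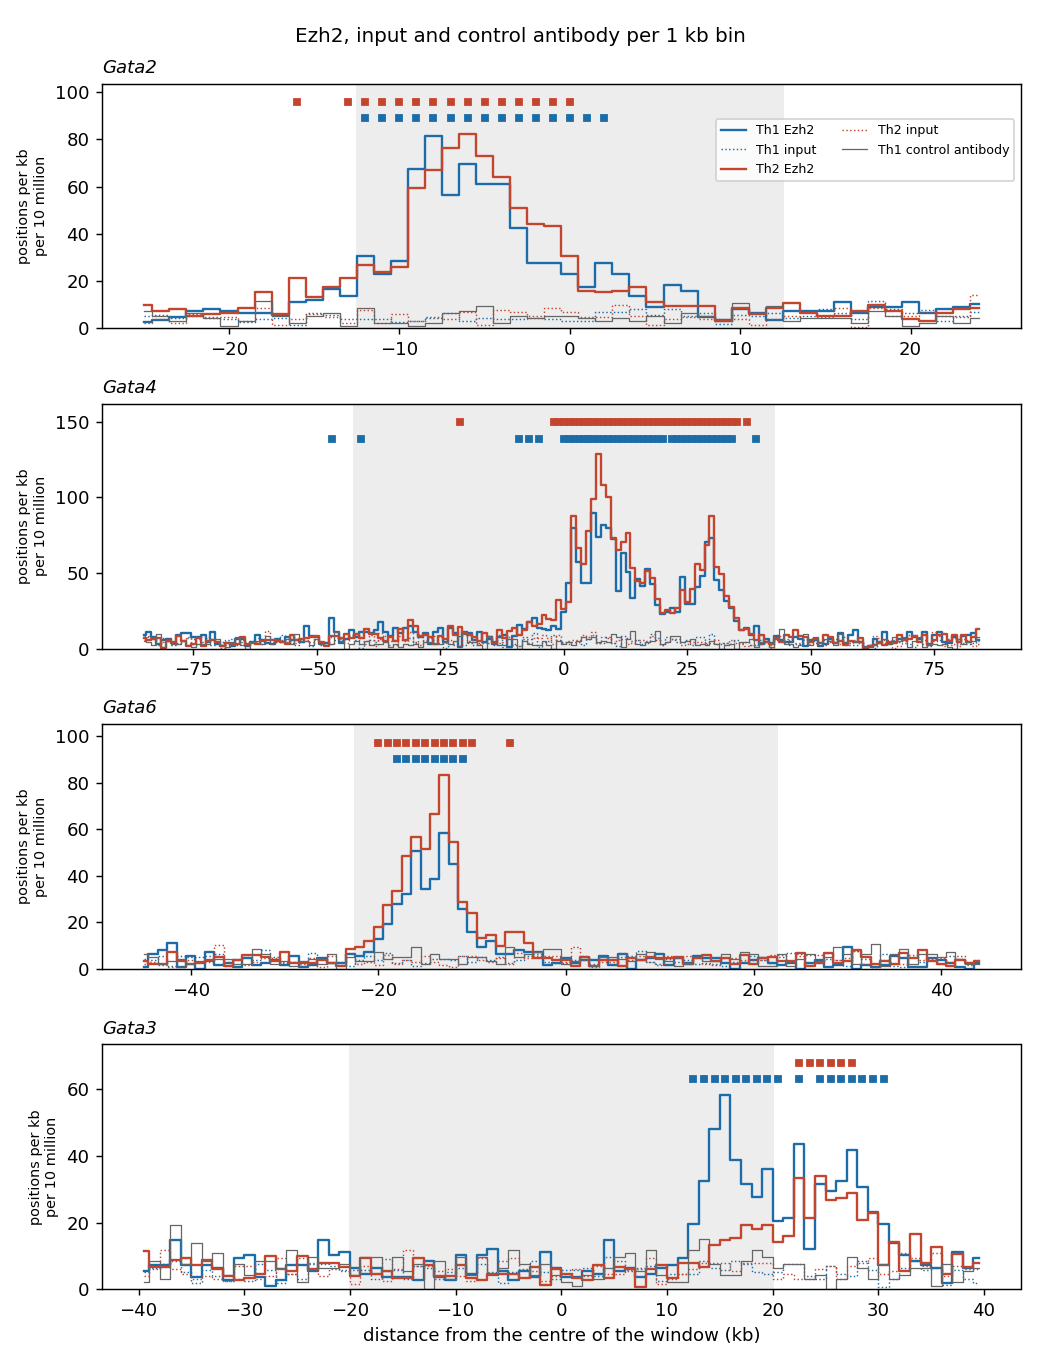
Positions per kb, scaled to 10000000 positions in the library, by 1 kb bin and distance from the centre of each window (grey), with squares above for called bins. Gata2 and Gata6 have 1 compact domain each, Gata4 has a wide domain with maxima on either side of a trough, and inputs and the Th1 control antibody stay flat; at Gata3 the Th1 line lies above Th2 in the right part of the window.

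The domain at Gata2 was a single block in the left part of its window. It ran from 88140001 to 88155000 when called in Th1, 15 kb in 15 called bins, and from 88139001 to 88153000 in Th2, 14 kb that began 1 kb before the window. The region called on both cell types together ran from 88136001 to 88156000, so the window cut it and the left flank held part of it. In blocks of 5 kb from the left end of the window, Th1 Ezh2 was 12.9-fold, 13.3-fold, 5.68-fold, 2.32-fold and 1.04-fold over input. The Th2 folds of the same blocks were 8.43, 12.7, 4.94, 2.47 and 2.11. Enrichment was therefore highest over the first 10 kb and faded to the right in both cell types. The bin with the most Ezh2 positions held 88 in Th1 (88144001 to 88145000, with 7 input positions) and 123 in Th2 (88146001 to 88147000, with 9). Scaled to 10000000 positions in the library, these bins held 81.4 and 82.2, nearly the same level. The highest fold of a single bin was 19.8 in Th1 (88146001 to 88147000) and 37.7 in Th2 (88147001 to 88148000). They rested on 5 and 2 input positions, and their intervals reached from 8.86 to 68.5 and from 12.7 to 391.7.

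Gata4 had the widest domain of the 3. Its main called region was 35 kb in Th1 (63857001 to 63892000) and 40 kb in Th2 (63855001 to 63895000). Inside it lay 2 maxima with a trough between them, in both cell types. The block from 63865001 to 63870000 had a Th1 fold of 13.0 (95% interval 9.37 to 18.5) and a Th2 fold of 13.8 (9.95 to 19.5). Further right, from 63875001 to 63880000, Ezh2 was 4.35-fold (3.16 to 6.07) and 5.58-fold (3.89 to 8.20). From 63885001 to 63890000 it stood at 9.99-fold (7.24 to 14.1) and 14.8-fold (10.1 to 22.8). The trough lay below both maxima without overlap of the intervals in Th1 and in Th2, yet it stayed above 3-fold at the lower end of its interval.

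The left part of the Gata4 window was weakly raised. Between 63815001 and 63845000 the 5 kb blocks ranged from 1.36-fold to 2.46-fold in Th1 and from 1.35-fold to 2.21-fold in Th2. In the 40 bins of the window called in neither cell type, the Th1 fold was 1.94 (95% interval 1.67 to 2.26) and the Th2 fold 1.87 (1.62 to 2.16), above the 1.07-fold to 1.44-fold of the flanks. Short called pieces lay outside the main region, at its left and right. A 5 kb piece from 63848001, with 3 called bins, and single bins at 63816001 and 63896001 were called in Th1 but not in Th2, and a single bin at 63836001 in Th2 but not in Th1. In the other cell type these pieces stood between 0.480-fold and 2.58-fold, and the single ones rested on 1 to 4 input positions of the library that called them. The bin with the most positions held 97 in Th1 (63863001 to 63864000, 14 input positions) and 192 in Th2 (63864001 to 63865000, 5 input positions). Scaled to 10000000 positions, these were 89.7 and 128.3, the highest of the 3 genes in each cell type. The Gata4 window had the most bins, and its 97 positions in Th1 stood against 88 at Gata2. In Th1 the folds of these top bins were 9.69 for Gata4 (5.67 to 18.9), 17.0 for Gata2 (8.43 to 46.4) and 12.2 for Gata6 (5.94 to 33.6). The Th2 folds were 30.1, 11.2 and 43.2 in the same order.

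The domain at Gata6 was short, with graded edges. It covered 8 kb in Th1 (11049001 to 11057000) and 11 kb in Th2 (11047001 to 11058000), with 1 further bin at 11061001 in Th2. The block from 11050001 to 11055000 had a Th1 fold of 12.9 (95% interval 8.56 to 20.1) and a Th2 fold of 18.0 (11.7 to 29.0). The block to its left stood at 3.16-fold in Th1 and 6.45-fold in Th2, and the blocks to its right at 4.96-fold and 7.27-fold, then at 1.52-fold and 2.41-fold. From 11065001 to the end of the window the 5 kb blocks were between 0.745-fold and 1.76-fold in Th1 and between 0.712-fold and 1.19-fold in Th2. The bin with the most positions was the same in both cell types, 11054001 to 11055000, with 63 in Th1 over 7 input positions and 125 in Th2 over 2. Scaled likewise, these were 58.3 and 83.5, so the Gata6 maximum was the lowest of the 3 in Th1 and about level with Gata2 in Th2. The highest fold of a bin, 32.0 in Th1 and 47.3 in Th2, rested on 2 and 1 input positions.

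By the main rule the order of called widths was the same in both cell types: Gata4, then Gata2, then Gata6. Called bins summed to 39 kb, 15 kb and 8 kb in Th1 and to 40 kb, 13 kb and 12 kb in Th2. The order of Gata2 and Gata6 in Th2 depended on the setting. Both were 16 kb with 2 kb bins and 17 kb with all deposited reads, a setting that called 5.83% of all tested bins in Th2. The Th2 Ezh2 library was the deeper one, and the part of depth in these widths was not tested. A width that does not use the calls was added after the data were seen: the stretch around the highest 3-bin mean that stays at 0.5 of it or more. By this measure Gata4 spanned 14 kb in Th1 and 13 kb in Th2, around its left maximum only. The Gata2 domain spanned 8 kb and 9 kb, and Gata6 8 kb in each cell type, with the same borders (11049001 to 11057000). Of the border bins called at Gata6 in Th2 alone, the one at 11048001 held 27.4 scaled positions in Th2 and 19.4 in Th1, and the one at 11057001 held 24.1 and 15.7. At Gata2 and Gata6 the widths at 0.5 of the maximum came within 1 kb of each other.

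**Figure D3:**
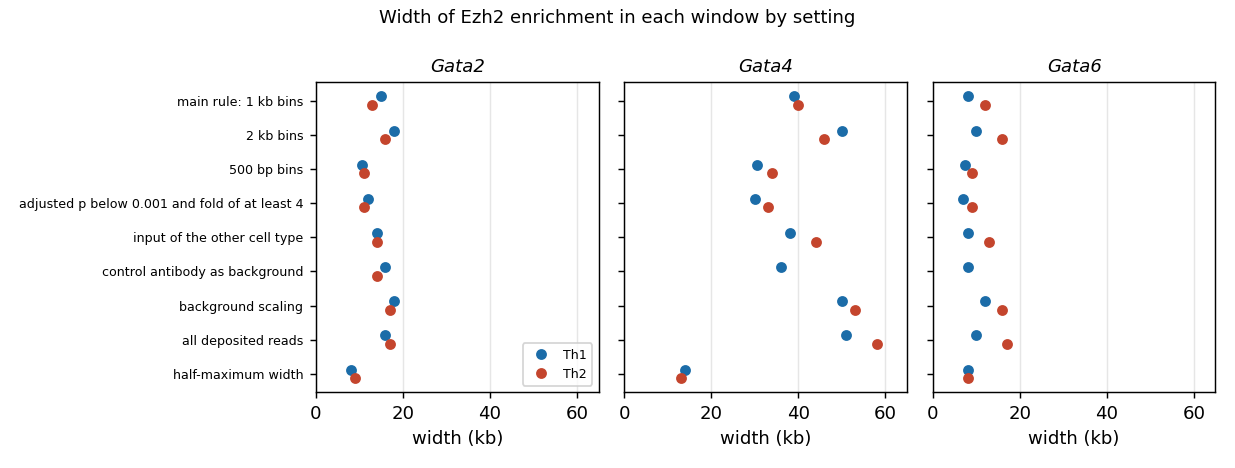
Width of Ezh2 enrichment (kb) in each window by the main rule and by the other settings, 1 point per cell type. Gata4 is the widest in every row, at 30.0 kb to 58.0 kb by calls and at 14 kb and 13 kb at 0.5 of the maximum, and Gata2 and Gata6 come close to each other in Th2.

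The profiles of Th1 and Th2 were alike in outline, though their highest bins differed at Gata2 and Gata4. Across the bins of a window, the Pearson correlation of the Ezh2 positions of both cell types was 0.935 over 25 bins at Gata2, 0.947 over 85 at Gata4 and 0.975 over 45 at Gata6. The inputs of both cell types correlated at −0.127, 0.189 and 0.295 over the same bins, and Th1 Ezh2 with the Th1 control antibody at −0.180, 0.140 and 0.117. These values describe the profiles; bins are not replicates, and neighbouring bins share a domain.

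To set the cell types against each other, the Ezh2 libraries of Th1 and Th2 were summed, as were their inputs, and regions were called on the sums. The genome held 2902 such regions of 3 kb or more. An exact binomial test, two-sided, then set Th1 against Th2 positions in each, with the median region, 0.853 after division by library totals, as the null ratio. The Gata2 region then spanned 20 kb, that of Gata4 50 kb and that of Gata6 15 kb, which placed them at 130, 10 and 236 in the order of width, where the median region was 5 kb. A separate 3 kb region in the Gata4 window, from 63834001, held 27 positions in Th1 and 57 in Th2. By fold over input in both cell types together, 7.90 for Gata2, 8.11 for Gata4 and 8.55 for Gata6, they ranked 161, 142 and 106 of 2902. Among the 565 regions of at least 10 kb they ranked 130, 116 and 88. Gata6, highest by fold, had the fewest scaled Ezh2 positions per kb. In Th1 these were 26.4 for Gata6, 36.1 for Gata2 and 37.5 for Gata4, and in Th2 36.5, 39.4 and 44.2. Scaled input per kb was also lowest at Gata6, at 3.98 in Th1 and 3.52 in Th2. For Gata2 and the 50 kb Gata4 region it lay between 4.30 and 5.44. The part of input in the order by fold was not tested.

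Relative to the median region, the Gata2 and Gata4 domains did not pass the test of a difference between the Th1 and Th2 libraries, and Gata6 passed it narrowly. At Gata2 Ezh2 had 781 positions in Th1 against 1180 in Th2, giving a relative ratio of 1.07 (95% interval 0.980 to 1.18, exact binomial test, adjusted p = 0.348 over 2902 regions). At Gata4 it had 2026 and 3309, a ratio of 0.993 (0.939 to 1.05, exact binomial test, adjusted p = 0.936). The direction for Gata2 turned with library totals as the null, without passing there either. Gata6 held 428 and 820, a ratio of 0.847 (0.752 to 0.953, exact binomial test, adjusted p = 0.0434), which is 1.18 times more in Th2 (1.05 to 1.33). Of all regions, 5.31% passed as higher in Th1 and 7.13% as higher in Th2, and among those of at least 10 kb 104 of 565 passed as higher in Th2 and 22 as higher in Th1. The median relative ratio of these 565 regions was 0.965, on the side of Th2 as well, and it was not used as a null.

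With the inputs in the test, none of the 3 passed. The relative ratio of folds is the Th1 fold over the Th2 fold, divided by the median of that ratio over the regions. This median was 0.821, so the division raised every ratio. For Gata2 the Th1 fold was 8.40 (95% interval 6.98 to 10.2), the Th2 fold 7.25 (6.08 to 8.70), and the relative ratio of folds was 1.41 (1.09 to 1.83, conditional exact test, adjusted p = 0.257). Gata4 was 7.28-fold (6.54 to 8.12) and 8.75-fold (7.81 to 9.84), a relative ratio of 1.01 (0.864 to 1.19, adjusted p = 1.00 by the same exact test). For Gata6 the folds were 6.63 (5.29 to 8.39) and 10.4 (8.09 to 13.5), and the relative ratio was 0.779 (0.549 to 1.10, conditional exact test, adjusted p = 0.703). This test passed for 0.310% of the regions. With library totals as the null, the ratios of all 3 domains lay below 1, the side of Th2. By this null 29.1% of all regions passed as higher in Th2 and 1.9% as higher in Th1, and the Gata4 ratio stood next to the 0.853 of the median region. The ratios were 0.916 for Gata2 (exact binomial test, adjusted p = 0.144), 0.848 for Gata4 (adjusted p = 9.39e-08) and 0.723 for Gata6 (adjusted p = 6.81e-07). Of the 72 bins called in either cell type in the windows, 55 had a higher density in Th2, 9 of 15 at Gata2, 34 of 45 at Gata4 and 12 of 12 at Gata6. Over all 21794 bins called in either cell type the share denser in Th2 was 67.1%, against 76.4% of the 72. The cell type and the library cannot be told apart here.

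**Figure D4:**
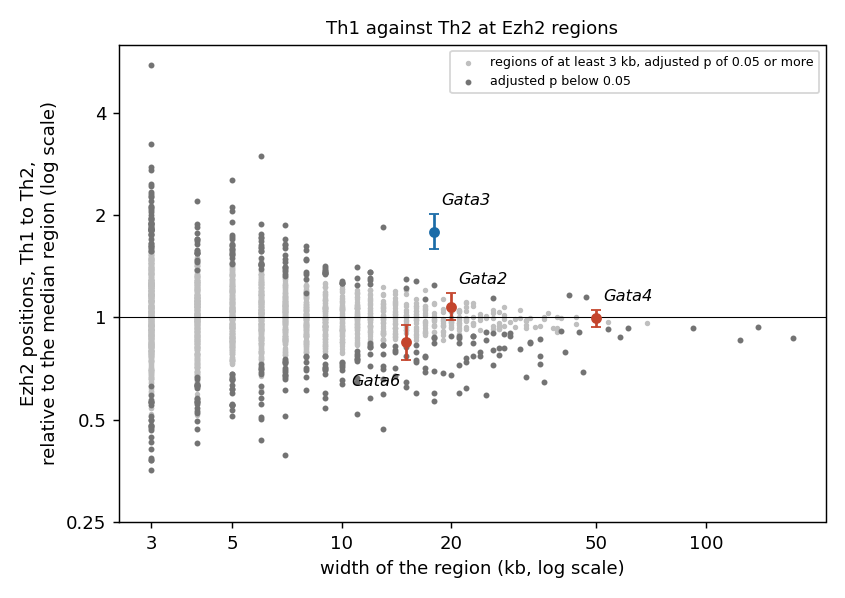
Ezh2 positions in Th1 relative to Th2, divided by the median region (log scale), against the width of the region (log scale), for 2902 regions; coloured points are the Gata regions of at least 10 kb with 95% exact intervals. Gata2 lies at 1.07 and Gata4 at 0.993, near the median line, Gata6 at 0.847, and Gata3 at 1.79.

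Gata3, the family member that Th2 cells use, was counted in the same way for comparison. Its window, 40 kb from 9770001 on chromosome 2, was placed from general knowledge of mm9 and not from an annotation. In Th1 it held 526 Ezh2 and 357 input positions, or 2.12-fold (95% interval 1.85 to 2.44), with 8 called bins. In Th2 it held 410 and 302, or 1.17-fold (1.00 to 1.36), with 0 called bins. This 0 depended on the window edge and the setting: the flank to the right had 6 called bins in Th2, and 4 other settings called between 1 kb and 5 kb inside the window. The region called on both cell types there ran past the window, from 9804001 to 9822000, with 605 positions in Th1 and 549 in Th2. Its relative ratio was 1.79 (1.59 to 2.01, exact binomial test, adjusted p = 4.97e-20), with a Th1 fold of 5.66 (4.74 to 6.80) and a Th2 fold of 3.37 (2.80 to 4.09). This interval of the ratio did not overlap that of Gata2, Gata4 or Gata6. The test with inputs gave a relative ratio of folds of 2.05 (1.57 to 2.66, conditional exact test, adjusted p = 2.08e-04). With inputs, the Gata3 interval overlapped that of Gata2 (1.09 to 1.83). It did not overlap those of Gata4 (0.864 to 1.19) and Gata6 (0.549 to 1.10).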

How the data were processed

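Ezh2, control antibody and input DNA from Th1 and Th2 cells had been sequenced, with 1 library per group. Per the submitters' processing notes, CASAVA and build mm9 were used; for alignment, read extension and filters, settings are not given in the sources used here. Counts of reads per distinct unstranded interval were deposited without normalization; 99.9992% or more of the intervals spanned 119 bases. Each interval was counted once at its midpoint on chromosomes 1 to 19 and X, which held 99.65% to 99.77% of a library, in bins of 1 kb, with Python 3.11.15, NumPy 2.4.6 and SciPy 1.17.1. Bins with under 10 positions in both libraries together were not tested. Calls added 0.5 to each count for the fold and used the Benjamini-Hochberg adjustment over all tested bins or regions. The conditional exact test used Fisher's noncentral hypergeometric distribution. The calling rule was also run on simulated counts that carried counting error only, and the outcome is not reported here. The named genes were the 3 members and Gata3, and bins named were those with the most positions or the highest fold; other GATA family and partner genes were not placed, without an mm9 annotation. The genes and windows were chosen with earlier results of these data known.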

Additional observations from a re-analysis of the deposited data

Results flagged for a closer look

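One result met the rule for a difference between the cell types in the enrichment of Ezh2 over input. In the Gata3 comparison region from 9804001, the fold over input in Th1 relative to that in Th2 was 2.045 after division by the median region (95% interval 1.57 to 2.66, conditional exact test, adjusted p = 2.08e-04 over 2902 regions). No Gata2, Gata4 or Gata6 region passed this test. Each cell type had 1 Ezh2 library, so the library and the cell type cannot be told apart.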

How the results depend on the processing

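No paired analysis was possible because there was only 1 library per group. Called widths at Gata2, Gata4 and Gata6 stayed within 1.5 times of the main value with 2 kb or 500 bp bins, stricter thresholds, all deposited reads, background scaling, the input of the other cell type or the control antibody. The width at 0.5 of the maximum, added after seeing the data, was smaller, at 8 kb for Gata2 in Th1 and 14 kb and 13 kb for Gata4 in Th1 and Th2. Background scaling takes the totals from those 10 kb bins whose Ezh2-to-input ratio is under the median, and raises every fold by construction: in Th1 and Th2 to 8.80 and 9.03 for Gata2, 7.40 and 8.14 for Gata4, and 4.25 and 5.42 for Gata6. Over the control antibody the fold was 7.82 for Gata2 in Th2, 6.10 for Gata4 in Th1 and 2.44 for Gata6 in Th1. All reads and the other input left the window folds inside their intervals. For Th1 against Th2, the ratio was 1.10 for Gata2 with all reads (exact test, adjusted p = 0.0133), which treats PCR duplicates as independent. It was 0.848 for Gata4 with library totals (exact test, adjusted p = 9.39e-08), and 0.779 for Gata6 with the inputs (exact test, adjusted p = 0.703). With all reads, and the same treatment of duplicates, the Gata6 ratio was 0.800 (exact test, adjusted p = 2.09e-06). The direction for Gata2 turned from 1.07 to 0.916 with library totals, short of the threshold in both. In the Gata3 window the Th2 called width of 0 kb became 4 kb with 2 kb bins or background scaling, 5 kb with all reads and 1 kb with the other input. Counting error limits single bins, since the inputs held a median of 5 to 7 positions per kb in the 3 windows.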
